A study of Caenorhabditis elegans with 18 samples.

Results

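Many Caenorhabditis elegans genes make more than 1 transcript, and the balance between them can move with age even where the gene's summed level does not. The genes described here were those with 2 or more transcripts in the deposited transcript tables and a mean gene level of at least 5 TPM (a transcript abundance scaled for length and depth) at both 50 h and 58 h in worms grown with ascr#10. There were 3993 such genes of 46253 in the table, with 13634 of its 60492 transcripts. The rule used the level and the number of transcripts, and no test of the change with age. It still left out genes that rose from, or fell to, a level under 5 TPM. Of the 13634 transcripts, 4395 were listed at 0 in all 6 ascr#10 samples compared, and 975 of the 3993 genes had fewer than 2 transcripts above 0 there. At the edge of the rule, F26G1.2 (6.45 TPM at 50 h and 5.01 TPM at 58 h) and pcp-3 (15.1 and 5.01 TPM) lay just inside, while prx-3 (4.996 and 5.25 TPM) and C25F9.14 (6.13 and 4.99 TPM) lay just outside.

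The worms were whole wild-type N2 hermaphrodites of the standard laboratory strain, synchronised by starvation at the first larval stage and then grown on plates spread with femtogram amounts of ascr#10, a small glycolipid (ascaroside) signal that males release in larger amounts, or with water. Worms of every group were free of males and of delayed animals at harvest, since both were picked off beforehand. Each of the 6 groups had 3 samples. ascr#10 and water worms were harvested at 50 h and at 58 h, and worms of 58 h were collected and sequenced a second time. The descriptions label these later samples batch 2. One label field gives 58 h for every sample, while the titles and descriptions, used here, give 50 h for 6 of them. The 3 samples of a group are described as independent, and the p-values below rest on how far they spread. The comparison was 58 h against 50 h in ascr#10 within the first collection, where the 6 libraries held 26.7 to 32.9 M estimated counts. Ribosomal RNA made up 2.28% of the estimated counts of ascr#10 replicate 2 at 50 h and between 0.346% and 0.990% elsewhere.

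These ages span the passage from the last larval moult to the gravid adult, and summed marker levels moved with it. The summed level of 8 oocyte genes was 2669 to 2803 TPM at 50 h and 4645 to 4796 TPM at 58 h, with every marker higher. For 6 sperm genes it was 978 to 1005 TPM at 50 h and 67.8 to 75.5 TPM at 58 h, with every marker lower. For 6 genes of the cuticle-forming epidermis it was 1435 to 1444 TPM and 1017 to 1032 TPM, and for 5 body wall muscle genes 2455 to 2529 TPM and 1834 to 1876 TPM, again with every marker lower. Intestine sums were 3807 to 3929 TPM and 4674 to 5002 TPM, but 5 of the 6 intestine markers were lower and 1 higher. Neuronal sums were 227 to 232 TPM and 265 to 277 TPM with 4 of 5 markers lower, germline sums 566 to 589 TPM and 647 to 657 TPM with 4 of 5 higher, embryo sums 3.72 to 4.47 TPM and 11.3 to 13.3 TPM with 5 of 6 higher, and male soma sums 0.268 to 0.552 TPM at both ages together. No marker was at 0 in all 6 samples. In whole worms, fewer cells of a type and less RNA per cell cannot be told apart, and the part of these shifts in tissue in the transcript shifts below was not tested.

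A gene's transcripts can differ in where transcription starts, in which exons and splice sites are joined, and in where the RNA ends. A different start often gives the protein another amino end and another set of tissues, a small exon or splice site change can add or remove a few residues, and a different end can change the carboxyl end or the untranslated tail. In C. elegans, alternative starts and splice sites are well known in genes of muscle, neurons and the extracellular matrix, where 1 gene serves several cell types or stages. Here each transcript's share was its TPM as a percent of the summed transcript TPM of its gene in the same sample, and a share shift was the mean share at 58 h minus that at 50 h, in percentage points.

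With age in ascr#10, a small set of genes was called for a shift between transcripts. In the edgeR calls, the largest shift within a gene ran from 1.48 to 92.6 points. An edgeR test of each transcript against the other transcripts of its gene could be run for 2946 of the 3993 genes, and 1047 had fewer than 2 transcripts past the count filter. It called 78 of the 2946 genes (2.65%) at an adjusted p under 0.05, beside 2.22% of all 4055 genes tested in the whole table, so the share of genes called was near the background. Of single transcripts, 57 were called higher within their gene and 39 lower, beside 0.628% and 0.378% of all 10834 transcripts tested. That split moved with single samples. Leaving out a 50 h sample, it was 35 and 36 without replicate 1, 34 and 32 without replicate 2 (with 57 genes called), and 38 and 33 without replicate 3. Leaving out a 58 h sample, it was 53 and 23 without replicate 1, 57 and 34 without replicate 2, and 50 and 29 without replicate 3. With only the 6 ascr#10 samples edgeR called 66 genes, with 38 transcripts higher and 46 lower. Of the 96 called transcripts, 48 were listed at 0 in all 3 samples at 50 h and 25 in all 3 at 58 h, together 76.04% of the calls against 6.49% of all tested transcripts of these genes. The estimated spread between replicate samples was large for transcript counts (a biological coefficient of variation of 58.6%). It was 45.7% after summing transcripts that share a coding sequence by name. The cause of this spread was not tested.

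Fits with limma gave more calls, and many different ones. limma voom called 227 of the 2946 genes and limma on log2 ratios of transcript TPM called 199, beside 6.26% and 7.77% of all genes tested. Of single transcripts, voom called 185 higher and 188 lower (1.9% and 1.95% of all tested), and the ratios 153 higher and 195 lower (2.54% and 2.71%). Both limma fits called 100 genes (2.98% over the whole table), which is 44.1% of the voom calls and 50.3% of the ratio calls. Of the 78 edgeR genes, 24 were also called by both limma fits (0.74% over the whole table) and 54 were not. In the 100 genes, the transcript with the largest shift had shares that did not overlap between the 3 samples at 50 h and the 3 at 58 h in 96, beside 593 of all 2946 genes, and the median size of that shift was 13.3 points, beside 3.67 points over all 2946. Shares that did not overlap between the ages were found in 15.3% of all tested transcripts, and in 6.92% the shift was also at least 10 points. These shares and the limma tests use the same samples, so the first does not support the second. The results below begin with the 24 genes called by all 3 fits, which were chosen for their agreement after the values were seen. That agreement is in the call of the gene, and the fits did not always call the same transcript. For Y47G6A.7 a.1 the adjusted p was 0.0408 by edgeR, 0.830 by limma voom and 0.0810 by limma on TPM ratios.

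**Figure D1:**
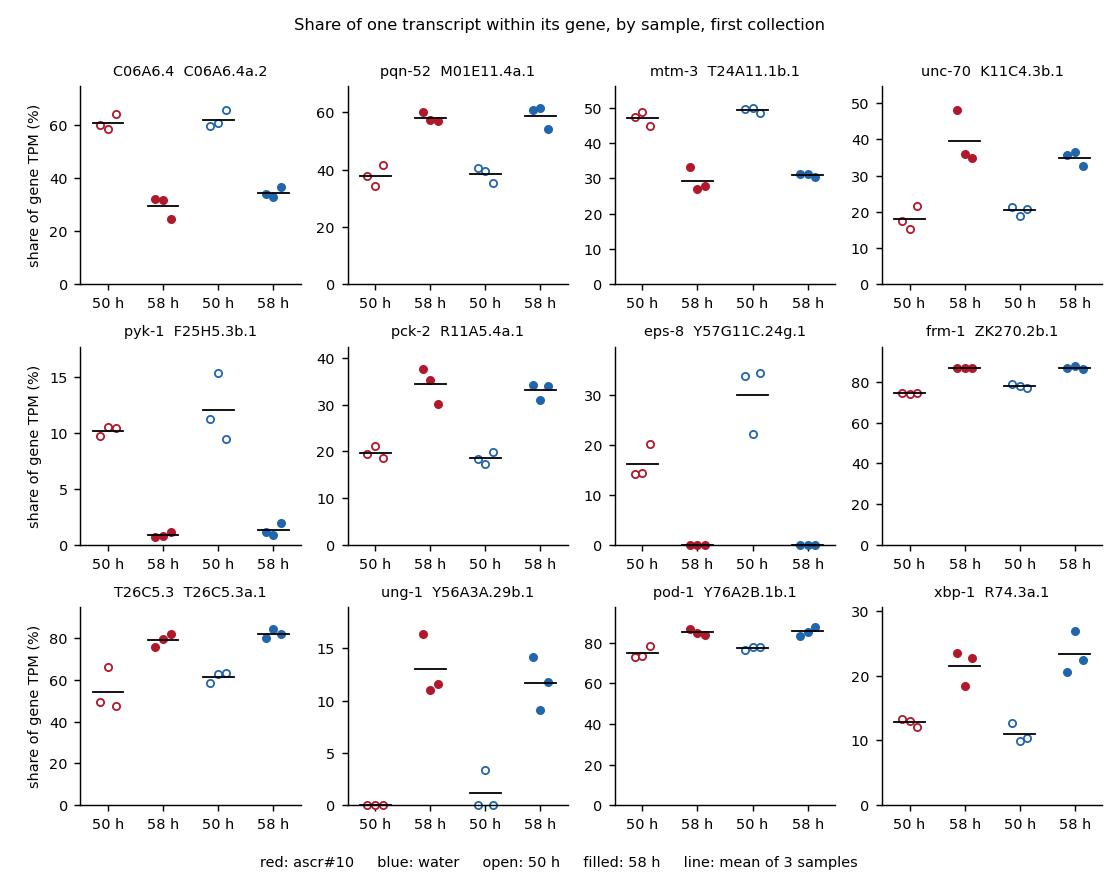
Share of one transcript within its gene (percent of gene TPM, vertical axis) in each sample at 50 h and 58 h, for 12 genes called by all 3 fits; red is ascr#10, blue is water, open circles are 50 h, filled circles 58 h, and lines are means of 3 samples. In C06A6.4 the ascr#10 shares of transcript a.2 lay between 58.5% and 64.1% at 50 h and between 24.7% and 31.9% at 58 h, and in all 12 panels the ascr#10 groups did not overlap.

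C06A6.4 and pqn-52 exchanged their leading transcripts. In C06A6.4, transcript a.2 held 60.0%, 58.5% and 64.1% of the gene's TPM at 50 h and 31.9%, 31.8% and 24.7% at 58 h. Transcript b.2 took its place, with 38.3%, 39.8% and 34.3% at 50 h and 65.4%, 65.9% and 73.1% at 58 h. The leading transcript therefore differed between every sample of one age and every sample of the other (edgeR adjusted p = 0.00191 for a.2 and 0.0075 for b.2, limma voom adjusted p = 6.09e-13 for a.2). In TPM, a.2 went from 70.9 ± 6.0 to 28.1 ± 3.9 and b.2 from 43.5 ± 1.9 to 64.9 ± 4.4 (SD, n = 3), while the gene fell by 0.40 on the log2 scale (SE 0.027, edgeR adjusted p = 3.82e-19).

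In pqn-52, a gene named for its glutamine- and asparagine-rich, prion-like protein, transcript a.1 held 37.7%, 34.3% and 41.7% at 50 h and 60.2%, 57.3% and 57% at 58 h. Its partner b.1 held 50.6%, 54.2% and 47.2%, then 29.4%, 31.8% and 31.4%. Another transcript, c.1, held 11.5% ± 0.28 at 50 h and 11% ± 0.59 at 58 h (SD, n = 3), so the exchange lay between a.1 and b.1, which again traded the lead in every sample (edgeR adjusted p = 0.0222 for a.1 and 0.0282 for b.1). Without any one of the 6 samples, a.1 missed the edgeR threshold, with adjusted p up to 0.221, while its limma voom adjusted p was 1.09e-11. In the Ensembl release 115 annotation of WBcel235, the pair spans chromosome I from 5568334 to 5570085 on the minus strand and differs by 1 exon of 24 bases, which a.1 skips and b.1 includes, giving coding lengths of 732 and 756 bases.

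Small splice site changes were seen in a pair of larger genes. nra-4, which codes for a nicalin-like protein that acts on nicotinic receptors in C. elegans, shifted from a.1 (49.2%, 60.3% and 40.1% at 50 h, 20.6%, 29.3% and 23.5% at 58 h) to b.1 (edgeR adjusted p = 0.00768 for a.1, but 0.112 without 1 of the 6 samples). The 2 transcripts lie on chromosome V from 1042691 to 1048582 on the minus strand and differ by an acceptor site 6 bases apart, so that their coding lengths are 3363 and 3369 bases. K02C4.3 shifted toward a.1, from 45%, 39.8% and 51.8% to 65.8%, 70.1% and 74.0%, at the cost of c.1, from 45.6% ± 3.3 to 26.2% ± 5.9. These also differ by an acceptor site moved by 6 bases, on chromosome II between 8080783 and 8086853 on the minus strand. For a.1 the edgeR adjusted p was 0.0364, and 0.25 without 1 of the samples.

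mtm-3, a myotubularin-type phosphatase of membrane phosphoinositides, moved between transcripts with shared ends. b.1 held 47.3%, 48.8% and 44.8% at 50 h and 33.1%, 26.8% and 27.9% at 58 h, and a.1 held the rest (edgeR adjusted p = 0.00658 for b.1 and up to 0.068 without 1 sample, limma voom 7.5e-10). The level of a.1 went from 34.8 ± 1.7 to 65.5 ± 1.7 TPM while b.1 was at 30.7 ± 1.3 and 27.2 ± 4.2 TPM. The gene rose by 0.40 on the log2 scale (SE 0.023). a.1 has a coding length of 3018 bases against 2883 in b.1. Both lie on chromosome III between 3789982 and 3800467 on the minus strand.

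In 2 cytoskeletal genes, the pair of transcripts differed at a start or an end. unc-70, the beta-spectrin that lines the membrane of neurons and other cells, raised b.1 from 17.4%, 15.2% and 21.5% to 48.0%, 36% and 34.9% (edgeR adjusted p = 0.00191, and 0.0678 without 1 of 2 samples). c.1, which begins 640 bases further downstream on the plus strand of chromosome V (6881978 to 6891839), went from 23.8% ± 2.1 to 13.8% ± 1.4, and a.1 from 48.5% ± 5.2 to 41.8% ± 6.1. eps-8, an actin-binding protein of intestinal microvilli, lost g.1, which held 14%, 14.4% and 20.1% at 50 h and was listed at 0 in all 3 samples at 58 h (edgeR adjusted p = 2.16e-09). h.1, with the same start on chromosome IV (14879484) and an end 3911 bases upstream, went from 42.3% ± 1.6 to 58.5% ± 0.92 of the gene's TPM. The gene itself fell by 0.95 on the log2 scale (SE 0.052), and h.1 was at 7.78 ± 0.096 and 6.46 ± 0.34 TPM, so its larger share did not come with a higher level.

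vab-10, the spectraplakin that joins muscle and epidermis through hemidesmosome-like junctions, is a large gene with many transcripts. Its e.1 held 43.5%, 48.5% and 39.1% at 50 h and 23.5%, 22% and 22.9% at 58 h, and it lost the lead in every sample. That transcript was called by both limma fits (voom adjusted p = 0.000605) but missed the edgeR threshold at 0.068. The edgeR call of the gene came from n.1, listed at 0 in all 3 samples at 50 h and at 15%, 10.6% and 4.76% at 58 h. frm-1, a FERM-domain protein, moved from long to short transcripts with little spread. b.1 held 74.9%, 74.0% and 74.8% at 50 h and 86.9%, 87.1% and 87% at 58 h (edgeR adjusted p = 0.00577, and 0.0578 without 1 sample), and d.1 went from 16.7% ± 1.6 to 7.36% ± 0.73 (edgeR adjusted p = 0.00895). The annotated lengths are 2482 bases for b.1 and 14520 bases for d.1.

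The enzymes pyk-1 and pck-2 were both among the 24. pyk-1, pyruvate kinase, which makes pyruvate in the last step of glycolysis, had b.1 at 9.73%, 10.5% and 10.5% at 50 h and at 0.726%, 0.803% and 1.10% at 58 h (edgeR adjusted p = 0.00326, limma voom 7.5e-10). In TPM this was 19.2 ± 0.58 and 1.81 ± 0.33. The main transcript a.1 went from 76.9% ± 0.65 to 88.7% ± 0.97, and the gene's log2 fold change was 0.00 (SE 0.021, adjusted p = 0.87). a.1 runs on the plus strand of chromosome I from 9168432 to 9177488, and b.1 starts 6049 bases downstream, at 9174481. pck-2, phosphoenolpyruvate carboxykinase, an enzyme of gluconeogenesis, raised a.1 from 19.4%, 21.1% and 18.6% to 37.6%, 35.3% and 30.3% (edgeR adjusted p = 0.00768), while a.2 held 73.8% ± 0.72 and then 59.1% ± 2.0. Both have the same coding sequence of 1962 bases, and their annotated starts lie 113 bases apart. The gene fell by 0.15 on the log2 scale (SE 0.022).

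**Figure D2:**
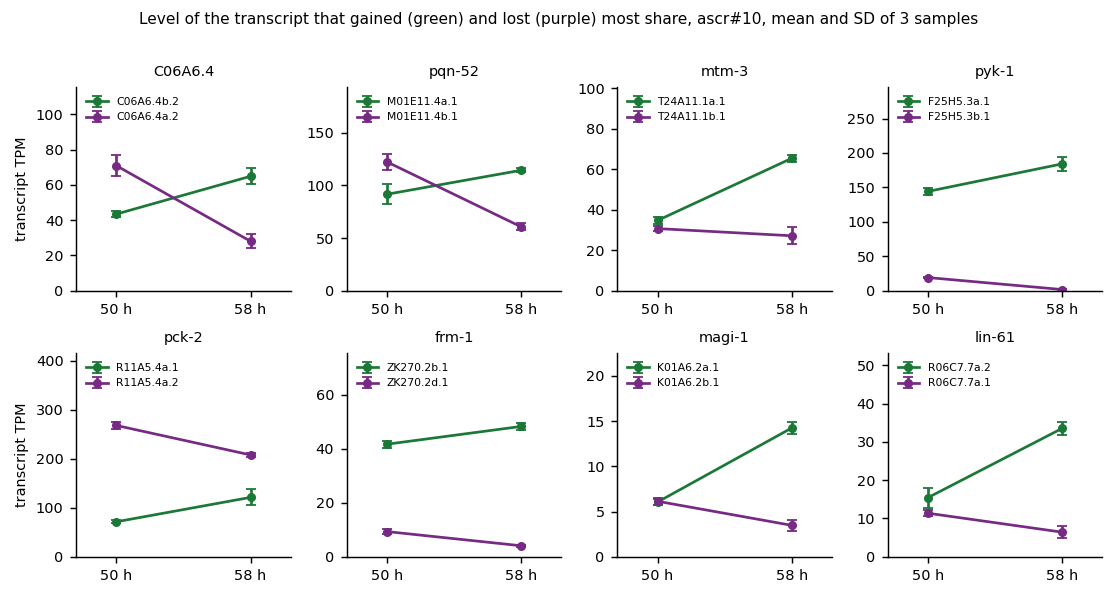
Level in TPM (vertical axis, linear) at 50 h and 58 h in ascr#10 of the transcript that gained most share (green) and the one that lost most (purple) in 8 genes; points are means of 3 samples and bars their SD. In C06A6.4 and pqn-52 the lines cross, while in mtm-3 the gaining transcript went from 34.8 to 65.5 TPM and the losing one was at 30.7 and 27.2 TPM.

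Further genes called by all 3 fits also moved between starts. T26C5.3 raised a.1 from 49.5%, 66.3% and 47.6% to 75.9%, 79.7% and 82.1% at the cost of d.1, which starts 4228 bases upstream on chromosome II, while its gene level did not pass the test (log2 fold change -0.04, SE 0.032, edgeR adjusted p = 0.291). The edgeR call of that gene came from c.1, at 0.835%, 3.55% and 1.89% at 50 h and listed at 0 at 58 h, and a.1 was called by the limma fits alone (voom adjusted p = 6.81e-07, edgeR 0.257). ccch-1, a CCCH zinc finger gene, had a.1 at 31.5%, 26.2% and 36.9% at 50 h and at 10.4%, 1.72% and 3.13% at 58 h (edgeR adjusted p = 0.0222, up to 0.148 without 1 sample). F16A11.1 raised b.1 from 10.5%, 7.61% and 22.1% to 50.1%, 42.4% and 32.4% (edgeR adjusted p = 0.00106). gcy-28, a receptor-type guanylyl cyclase, raised d.1 from 44.9%, 48.9% and 46.5% to 58.1%, 60.4% and 58.5%, by both limma fits (voom adjusted p = 0.000106) and not by edgeR (adjusted p = 1 for d.1). The edgeR call of gcy-28 came from T01A4.1b.1, which was listed at 0 in 5 of the 6 samples and held 5.34% in the other.

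dnj-20, which codes for a DnaJ-type co-chaperone, had a short transcript, b.1, at 42.6%, 41.9% and 41.5% at 50 h and at 26.1%, 22.8% and 22.8% at 58 h (edgeR adjusted p = 0.00196). b.1 is annotated at 249 bases, and in the second collection its share at 58 h was 53.0%, above that at 50 h. W07E11.1 raised a.1 from 65.3% ± 12 to 86.3% ± 5.7 (limma voom adjusted p = 0.00217). T24B8.4 raised d.3 from 17.6% ± 6.2 to 43.3% ± 1.2 (limma ratio adjusted p = 0.00293, voom 0.108), a shift of 25.6 points in TPM share but of 3.29 points in the share of estimated counts. rps-12, a protein of the small ribosomal subunit, had its transcript F54E7.2.3 at 30.5% ± 0.99 and then 14.1% ± 5.4 (edgeR adjusted p = 0.00192), but it and F54E7.2.1 differ by 4 bases at their ends and have 1 coding sequence, and the part of reads split between them in this shift was not tested. In ZK355.2 and Y47G6A.7, also among the 24, shares spread widely within an age, such as 53.3%, 35.5% and 18.9% for ZK355.2 a.1 at 50 h against 3.37%, 4.36% and 4.84% at 58 h. For that transcript the edgeR adjusted p was 0.0332, and up to 0.162 without 1 sample. The limma adjusted p was 0.0227 on TPM ratios and 0.0644 by voom, so voom did not call it.

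Genes that act in DNA repair, embryonic polarity and protein folding were among those called by all 3 fits. ung-1, uracil-DNA glycosylase, gained b.1, listed at 0 in all 3 samples at 50 h and at 16.4%, 11% and 11.6% at 58 h (edgeR adjusted p = 9.08e-05). The shift was 13.01 points in TPM share and 4.05 points in the share of estimated counts. Its annotated coding length is 285 bases, against 846 bases for a.1, and their donor sites lie 545 bases apart. pod-1, a coronin-like protein needed for polarity of the early embryo, had c.1 at 13% ± 1.8 and then 6.52% ± 0.17 (edgeR adjusted p = 0.00191) and b.1 at 75.2% ± 2.9 and then 85.2% ± 1.4. xbp-1, a transcription factor of the unfolded protein response, raised a.1 from 13.3%, 13% and 12.1% to 23.4%, 18.4% and 22.7% (edgeR adjusted p = 0.0171), while the gene rose by 0.41 on the log2 scale (SE 0.022). In C. elegans the kinase and nuclease IRE-1 removes a short piece of xbp-1 RNA when unfolded protein builds up. Which deposited transcript matches that form was not analysed here, since neither xbp-1 pair nor that of C06A6.4 could be matched to the annotation.

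Among the 100 genes called by both limma fits, others showed large shifts with the same direction and no overlap in water (named after their values were seen). magi-1, a scaffold protein of cell junctions and synapses, raised a.1 from 45.3%, 48.7% and 50.4% to 78.2%, 78.9% and 79.7% at the cost of b.1, which starts 4084 bases downstream (limma ratio adjusted p = 8.56e-05). igdb-2, with immunoglobulin domains, moved from b.1 (54.9% ± 1.4) to a.1 (70.6% ± 5.4 at 58 h, limma voom adjusted p = 4.33e-07), whose annotated end lies 4879 bases further on. The share of b.1 fell by 25.5 points in TPM, by 11.4 points in estimated counts and, set against 58 h of the second collection, by 4.43 points in TPM. igcm-3, a cell adhesion gene, raised b.1 from 23.6% ± 13.7 to 62.0% ± 9.1, a transcript in which an intron of 300 bases is spliced out that a.1 keeps. orai-1, the store-operated calcium channel, raised a.1 from 43.6% ± 2.3 to 64.7% ± 2.5, and ptp-3, a LAR-type receptor phosphatase, raised b.1, its form with the later start, from 61.6% ± 1.5 to 83.1% ± 3.6. lin-61, a chromatin protein with MBT repeats, lost a.1, from 33.7%, 40.8% and 37.4% to 10.2%, 12.4% and 16.8% (limma voom adjusted p = 1.02e-07). ctn-1, alpha-catulin, raised c.1 from 42.3% ± 4.0 to 66.6% ± 2.3, and add-2, adducin, a.2 from 25.8% ± 7.8 to 58.3% ± 8.1. gap-2, C42C1.9, sup-37, unc-73, sli-1 and W01C8.5 also belonged to this set, with largest shifts between 23.2 and 56.4 points in size but SDs of up to 22.6 points within an age.

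Splicing factors and other groups were taken from gene lists, and their counts are set beside the shares called over all 2946 genes, which were 2.65% by edgeR, 7.71% by voom, 6.75% by the TPM ratios and 3.39% by both limma fits. Of 48 listed splicing factors, 30 were among the genes described and 27 were tested, of which edgeR called 1, voom 3, the TPM ratios 4 and both limma fits 3. Their median largest shift was 2.16 points, beside 3.67 points over all 2946 genes. spk-1, the SR protein kinase, had a.2 at 4.36% ± 0.088 and then 1.72% ± 0.21 (limma voom adjusted p = 0.000161). rsp-6, an SR protein, had transcript c at 2.57% ± 0.44 and then 1.41% ± 0.31 (0.00156), and pqn-70 had c at 5.23% ± 0.36 and then 3.24% ± 0.28 (0.00122). In the annotation neither transcript c has a coding sequence, and nor does rsp-6 b, which gained most share in its gene. rsp-1, another SR protein, was called by edgeR for c.1, at 0, 4.39% and 6.22% at 58 h and listed at 0 at 50 h (adjusted p = 0.00654, and 0.0508 without 1 sample), with a mean shift of 3.54 points in TPM share and 1.53 points in the share of estimated counts. Of 9 factors of nonsense-mediated decay, which removes RNAs with early stop codons, 5 were tested, edgeR called 0 and each limma fit called 1. That gene was smg-6, the endonuclease of the pathway, whose b.1 went from 45.7%, 45.2% and 50.3% to 55.8%, 54.6% and 57.5% (limma voom adjusted p = 1.77e-05, and 0.0608 for that transcript on TPM ratios). b.1 is the short form, with a coding length of 1383 bases against 3723 in a.1.

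Of 44 textbook genes with known isoforms, 24 were tested; edgeR called 1, voom 5 and the TPM ratios 2, with a median largest shift of 7.40 points. lev-11, muscle tropomyosin, had d.1 at 6.56%, 7.06% and 6.08% at 50 h and at 2.86%, 2.61% and 3.08% at 58 h (edgeR adjusted p = 0.00392), while the gene fell by 0.71 on the log2 scale (SE 0.022). unc-52, the perlecan of the muscle basement membrane, raised p.1 from 21.6% ± 1.5 to 37.3% ± 3.7 (limma ratio adjusted p = 0.00409), a shift of 15.7 points in TPM share and 3.58 points in the share of estimated counts. In water its p.1 held 38%, 31.5% and 30.9% at 50 h and 24.7%, 32.7% and 27.1% at 58 h, the other direction. p.1 is a short transcript, with a coding length of 411 bases against 6579 in l.1.

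Of 28 muscle genes tested, edgeR called 1 (lev-11), voom 7, the TPM ratios 2 and both limma fits 1, which was sca-1, the calcium pump of the sarcoplasmic reticulum. Its b.1 went from 27.4% ± 2.5 to 15% ± 3.0 and c.1 from 17.3% ± 0.54 to 28.5% ± 0.68 (limma voom adjusted p = 7.25e-08 and 1.03e-05). Of 13 neuronal genes tested, edgeR called unc-33 and unc-70, voom 3 genes, the TPM ratios 2 and both limma fits unc-70. Of 10 basement membrane genes, edgeR called epi-1, voom 2 genes, the TPM ratios 3 and both limma fits unc-52. Of 13 intestine genes, eps-8 alone was called by each of the 3 fits. Of 41 ribosomal protein genes, edgeR called rps-12, voom 2 genes and the TPM ratios 1, with rps-12 called by both limma fits, and their median largest shift was 0.828 points. Of 14 respiratory chain genes, edgeR called 0, voom 1 and the TPM ratios 0, with a median largest shift of 0.664 points.

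Of 10 genes of small RNAs and germ granules, edgeR called 0, voom 2, the TPM ratios 2 and both limma fits csr-1, the Argonaute that binds RNAs of germline genes, whose b.1 went from 70.1%, 67.4% and 67.6% to 77.7%, 75.7% and 78.1% (limma voom adjusted p = 2.96e-05). Its long form a.1 went from 31.6% ± 1.5 to 22.8% ± 1.3. Of 21 meiotic and cell cycle genes, edgeR called 0, voom 1, the TPM ratios 3 and both limma fits klp-7, a microtubule-depolymerising kinesin, whose b.1 went from 43.9% ± 4.4 to 59.3% ± 0.50 (limma voom adjusted p = 0.00302). Of 14 oocyte and egg genes, voom called 0, the TPM ratios 1 and edgeR rme-2, the yolk receptor, whose a.1 went from 89.3% ± 3.2 to 78.5% ± 6.1 with edgeR adjusted p = 1 for a.1, and the call came from T11F8.3b.2, listed at 0 in all 3 samples at 50 h. Of 4 sperm genes tested, edgeR called 0, voom 0 and the TPM ratios 1.

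Of 16 translation factors, edgeR called 0, voom 2, the TPM ratios 1 and both limma fits pab-1, the poly(A)-binding protein, whose a.5 went from 0.409%, 0.468% and 0.761% to 6.85%, 7.92% and 8.38% (limma voom adjusted p = 0.0014, edgeR 0.057). Of 14 insulin and TGF-beta pathway genes, edgeR called 0, voom 3, the TPM ratios 3 and both limma fits 2, which were akt-1, a kinase of insulin signalling, and din-1, a co-repressor that works with DAF-12. akt-1 b.1 went from 11.5% ± 0.71 to 5.88% ± 0.41, and din-1 d.2 from 29.2% ± 3.2 to 10.3% ± 0.26. Of 15 fatty acid genes edgeR called 0, voom 2, the TPM ratios 1 and both limma fits let-767, whose c.1 went from 1.87% ± 0.71 to 4.62% ± 0.20, and of 3 cuticle and moulting genes edgeR called 0 and each limma fit bli-4, a proprotein convertase of cuticle collagens. Its g.1 went from 11.5%, 11.7% and 12.3% to 5.18%, 4.81% and 5.17%, and d.1 from 43.8% ± 0.77 to 52.9% ± 1.0 (limma voom adjusted p = 1.07e-07 and 5.65e-06), while the gene level did not pass the test (log2 fold change -0.03, SE 0.023).

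Most genes called by edgeR had a called transcript listed at 0 in samples of an age. In 60 of the 78 edgeR genes, this was so in 2 or 3 samples of an age. Only transcripts called by edgeR were counted there, so that count cannot be set against the limma calls. In 26 of the 78 genes called by edgeR, a transcript, called or not, was listed at 0 in all 3 samples of one age and above 0 in all 3 of the other. The same was so in 8 of the 100 genes called by both limma fits. fipr-8 had the largest shift of all. C12D8.6.1 held 100% of the gene in every sample at 50 h, and C12D8.6.2 held 82.8%, 100% and 94.98% at 58 h (edgeR adjusted p = 0.036, and up to 0.166 without 1 sample, with a gene level of 43.7 and 8.08 TPM). In epi-1, a laminin alpha chain, d.1 was listed at 0 at 50 h and at 32.4%, 14.1% and 21.4% at 58 h (edgeR adjusted p = 5.99e-05), and f.1 gave up the lead with 54.5% ± 4.0 and then 28.1% ± 3.9. H05L14.2 d.1 was listed at 0 at 50 h and at 18.2%, 19.8% and 28.5% at 58 h (0.000108). In the other direction, unc-33 (a CRMP protein that guides axons) a.2 held 23.6%, 20.1% and 10.3% at 50 h and C41D11.3 b.1 20.5%, 17.9% and 16.7%, and both were listed at 0 in all 3 samples at 58 h (0.000165 and 0.000529). C01G12.3.2 and F44E7.5 a.1 were listed at 0 at 50 h and held 31.3% ± 8.0 and 15.7% ± 3.3 at 58 h. pptr-2 a.1 was called with 34%, 37.7% and 0 at 58 h, pan-1 a.1 with 11.6%, 7.50% and 25.9% (15.002 points in TPM share, 8.52 points in the share of estimated counts), and tep-1 b.1 with 0, 19.2% and 20.2% at 50 h. The limma voom adjusted p was 0.758 for epi-1 d.1, 0.846 for H05L14.2 d.1, 0.817 for unc-33 a.2 and 0.765 for C41D11.3 b.1. It was 0.0829 for C12D8.6.2, 0.265 for C01G12.3.2, 0.755 for F44E7.5 a.1, 0.978 for pptr-2 a.1 and 0.656 for pan-1 a.1. Of these, only F44E7.5 a.1 (limma adjusted p = 0.149) and pptr-2 a.1 (0.245) did not pass on TPM ratios either.

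**Figure D3:**
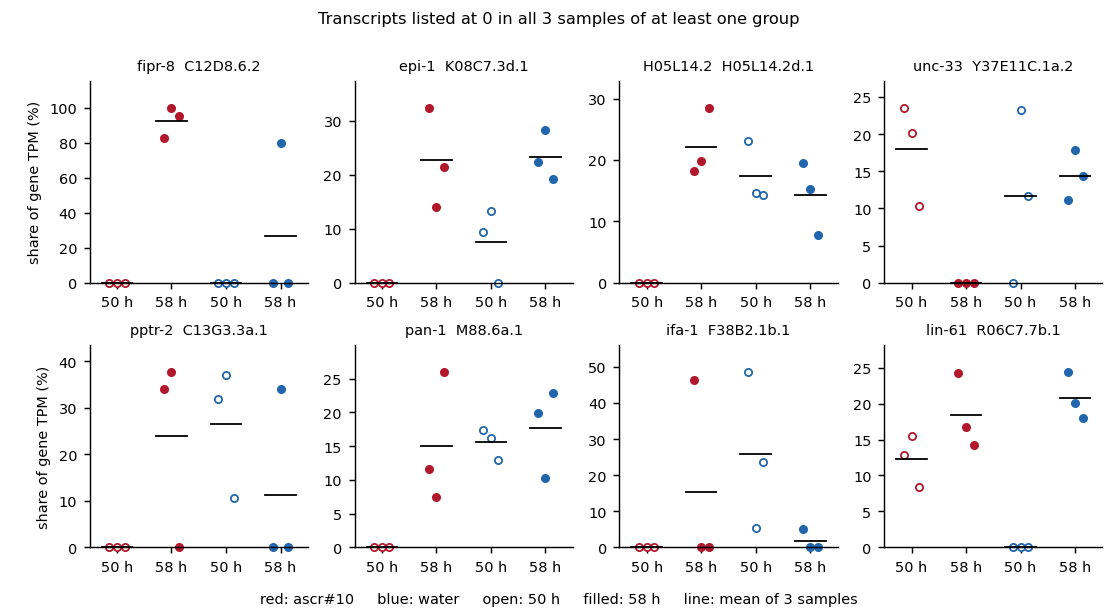
Share of one transcript within its gene (percent of gene TPM, vertical axis) by sample for 8 genes in which that transcript is listed at 0 in all 3 samples of at least one group; colours and symbols give exposure (red ascr#10, blue water) and age (open 50 h, filled 58 h), and lines are means of 3 samples. H05L14.2 d.1 was listed at 0 in ascr#10 at 50 h but held 23%, 14.6% and 14.3% in water at the same age.

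The gene level moved in most of these genes, and the shifts were found with and without it. Of the 3988 genes tested at gene level, 2293 rose and 1208 fell (edgeR adjusted p under 0.05), together 87.8%, beside 80.9% of all genes tested, of which 37% were higher and 43.9% lower. The minimum of 5 TPM at both ages bears on this comparison, since genes low at either age were left out. Of the 100 genes called by both limma fits, 53 rose, 30 fell and 17 did not pass the test, and 34 had a log2 fold change under 0.2 in size (34%, beside 26.1% of all 2946 tested). In the 78 edgeR genes these counts were 42, 27, 9 and 16. Levels on the TPM scale sat 0.13 higher in the log2 ratio than edgeR's TMM-scaled fold changes in the median gene, and 107 called genes had the opposite sign there. In 54 of the 100 genes the gaining transcript rose and the losing one fell in TPM without overlap, in 33 only the gaining one rose and in 13 only the losing one fell. Over all 2946 genes these shares were 4.82%, 44.2% and 16.4%, and the pairs and the calls use the same samples.

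**Figure D4:**
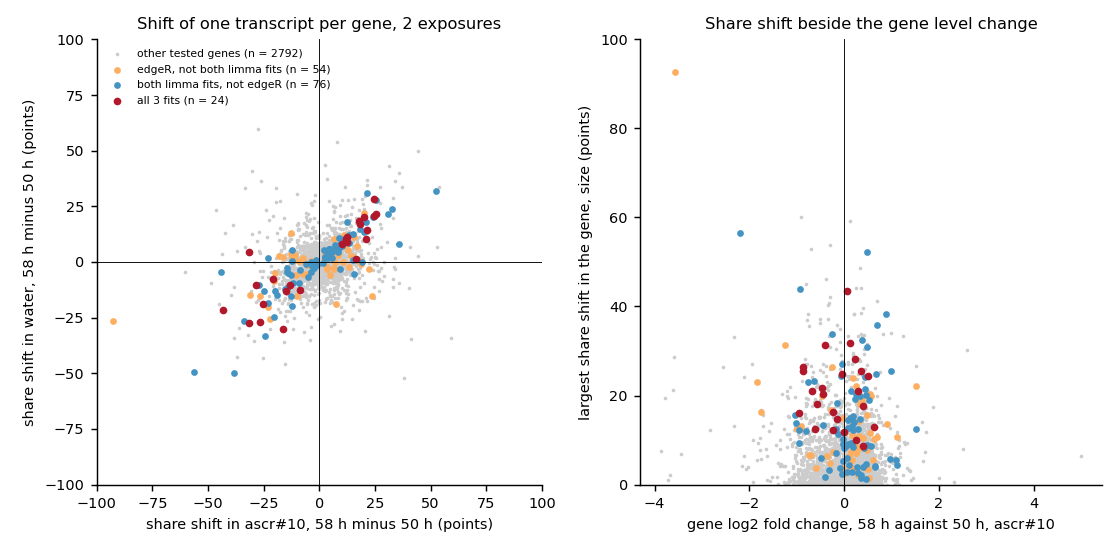
Left, share shift (percentage points, 58 h minus 50 h) in ascr#10 (horizontal) and in water (vertical) of the transcript with the largest ascr#10 shift in each of 2946 genes; right, size of that shift against the gene's log2 fold change with age in ascr#10. Red marks the 24 genes called by all 3 fits, blue the other genes called by both limma fits, orange the other edgeR genes and grey the rest; red and blue points lie mostly along the rising diagonal on the left, and on the right shifts above 20 points occur on both sides of a log2 fold change of 0.

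The gene-level fold change depended on whether counts were scaled for transcript length. Between summed counts and length-scaled counts, the log2 fold change moved by over 0.2 in 85 of 3988 genes, against 1 of 10071 genes with a single transcript, and 3 genes were called in opposite directions. frm-1 fell by 0.62 on the log2 scale (SE 0.025) by summed counts and by 0.14 by length-scaled counts, with a gene level of 55.9 TPM at 50 h and 55.4 TPM at 58 h. For igdb-2 the values were 1.00 and 0.53, and for add-2, 0.38 and 0.04, where the second did not pass the test (edgeR adjusted p = 0.585). unc-52 fell by 1.05 and by 0.80.

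Where the pair of transcripts with the largest gain and loss could be read from the annotation, the difference lay at any part of the RNA. Both transcripts were matched in 80 of the 100 genes called by both limma fits. Starts differed by more than 10 bases in 43 of these pairs, ends in 32, and both ends lay within 10 bases in 26. The gaining transcript was shorter in 42 pairs and longer in 38. For all tested genes only 67.4% of pairs were matched. Of these, starts differed in 56.8%, ends in 50.3%, and both ends lay within 10 bases in 27.2%. The gaining transcript was shorter in 50.2%. In the 80 pairs above these shares were 53.75%, 40%, 32.5% and 52.5%. The positions of unmatched pairs are not known, so no difference is read from these shares. By transcript name, which gives transcripts of 1 coding sequence the same stem, 15 of the 100 pairs shared their coding sequence, beside 33.9% of all tested pairs. Of the tested genes, 759 had only 1 coding isoform in the test by coding isoform, while 92 of the 100 could be tested that way. The sets are therefore unlike, and no difference is read from these shares either. The stem held 1 coding sequence in 1197 of 1197 stems that could be checked.

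The same comparison was made in water. The water samples entered the fits through the shared estimate of spread, but not the ascr#10 contrast. The edgeR test called 76 of these genes with age in water (2.1% over the whole table), of which 24 were also called in ascr#10, 31.6% of the water calls and 30.8% of the ascr#10 calls. voom called 156 (4.46% over the whole table), with 86 shared (55.1% and 37.9%), and the TPM ratios 178 (7.3%), with 101 shared (56.7% and 50.8%). Of the 100 genes called by both limma fits in ascr#10, the transcript with the largest shift moved in the same direction in water in 92 and without overlap between ages in 69. Over all 2946 genes these were 1637 (55.6%) and 180 (6.11%). For the 24 genes called by all 3 fits they were 23 and 19, and for the 78 edgeR genes 54 and 25.

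The shares in water for genes named above follow. C06A6.4 a.2 held 59.4%, 60.7% and 65.7% in water at 50 h and 34.1%, 32.7% and 36.7% at 58 h. mtm-3 b.1 held 49.6%, 49.8% and 48.5%, then 31.3%, 31.1% and 30.3%, and pqn-52 a.1 40.7%, 39.4% and 35.2%, then 60.8%, 61.4% and 54.1%. eps-8 g.1 held 33.6%, 22.1% and 34.3% at 50 h and was listed at 0 in all 3 water samples at 58 h as well. pyk-1 b.1 went from 11.3%, 15.4% and 9.43% to 1.16%, 0.838% and 1.98%, and lin-61 a.1 from 52.7%, 48.3% and 42.5% to 14.24%, 12.8% and 16.1%. In rps-12 and ZK355.2 the water groups overlapped, with F54E7.2.3 of rps-12 at 32.2%, 37.4% and 28.9% and then 41.7%, 23.5% and 29.5%.

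A test of the difference between the age change in ascr#10 and that in water gave calls that the fits did not share. edgeR called 58 of these genes, voom 10 and the TPM ratios 5, beside 1.65%, 0.271% and 0.247% over the whole table, and 0 genes were called by all 3. Of the 66 transcripts edgeR called in this test, 65 were listed at 0 in all 3 samples of at least 1 group. edgeR and the TPM ratios shared 4 genes, C01B10.6, H05L14.2, lin-61 and spsb-1, and edgeR and voom shared col-181 (these 5 named after their values were seen). In lin-61 the transcript at issue was b.1, at 12.8%, 15.6% and 8.47% in ascr#10 at 50 h and listed at 0 in all 3 water samples at that age, but at 24.3%, 16.8% and 14.3% and at 24.4%, 20.0% and 17.9% at 58 h (edgeR adjusted p = 7.86e-12, TPM ratios 0.00568, voom 0.305).

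At 58 h the second collection gave shares that were alike in some genes and unlike in others, set beside the same 50 h samples. C06A6.4 a.2 held 33.9% there, pqn-52 a.1 66.1%, mtm-3 b.1 24.24%, pyk-1 b.1 0.362%, frm-1 b.1 88.2% and T26C5.3 a.1 82.9%, and eps-8 g.1 was again listed at 0. unc-70 b.1 held 20.5%, gcy-28 d.1 43.5%, nra-4 a.1 41%, K02C4.3 a.1 46.6%, sca-1 b.1 28.8% and pab-1 a.5 1.02%, all nearer to their 50 h than to their 58 h shares in the first collection. Against the same 50 h samples, gcy-28 d.1 then moved the other way, by -3.23 points, and so did sca-1 b.1, by 1.41 points. These libraries were deeper, at 54.3 to 69.2 M estimated counts, and came from other worms, so depth, worms and sequencing run cannot be told apart.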

How the data were processed

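RNA was sequenced from whole worms with a strand-specific kit, per the labels' protocols, in 18 samples of 6 groups. The authors' deposited tables hold estimated counts and TPM per transcript and per gene made with salmon, going by the file names. No source used here gives its version, the genome build, the annotation or how strand was set. Estimated counts were whole numbers in 82.9% of transcript values and were rounded before testing. TPM values, as deposited, were used for shares and levels.

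edgeR 4.0.16 in R 4.3.3 (TMM scaling, minimum count 10, a robust quasi-likelihood fit with 6 group means over all 18 samples) tested each transcript against its gene, with Simes p-values per gene and Benjamini-Hochberg adjustment over the whole table at 0.05. limma 3.58.1 gave the voom fit and a fit on log2 ratios of TPM plus a pseudocount of 0.5, and DESeq2 1.42.0 a gene-level alternative. On simulated data, with counts drawn independently for each transcript, edgeR recovered fewer changes and made more false calls than either limma fit. The simulation had no splitting of reads between transcripts and no planted absence of a transcript at one age. It therefore cannot rank the fits on these data. Transcript positions came from Ensembl release 115, WBcel235, by transcript ID, which matched 55918 of 60492 transcripts; the authors' build may differ.

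The members and gene lists were chosen with earlier results of these data known. Genes named by rule were the called genes with the largest non-overlapping shifts, those that changed leading transcript, those with little gene-level change, called list genes and those differing most from water. The genes called by all 3 fits, or by both limma fits, were added after their values were seen. Alternatives covered scaling, count and TPM filters, tools, samples in the fit, coding isoforms (added after seeing the data) and leaving out each sample.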

Additional observations from a re-analysis of the deposited data

Results flagged for a closer look

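For 11 of the 66 named genes the age change in transcript use differed between ascr#10 and water by edgeR's test of the difference. That test called 58 of the genes described, and 1.65% of genes over the whole table. Genes named for differing most from water were chosen by this same test, so their place here was set in advance. The edgeR adjusted p was 7.86e-12 for lin-61, 0.00117 for gcy-28, 0.00228 for unc-33, 0.00236 for H05L14.2, 0.00374 for pck-2 and 0.00653 for epi-1. It was 0.0163 for ifa-1, 0.0169 for pptr-2, 0.0242 for rsp-1, 0.032 for Y45G5AM.3 and 0.0376 for pan-1. In ascr#10, ifa-1 b.1 was at 0 TPM at 50 h and at 3.46 ± 6.0 TPM at 58 h (SD, n = 3), all of it in 1 sample. Without replicate 1 at 58 h, edgeR did not call ifa-1 b.1 with age. On TPM ratios lin-61 and H05L14.2 passed (limma adjusted p = 0.00568 for each) and the other 9 did not, and by voom none of the 11 did. For pck-2 the limma adjusted p was 0.989 by voom and 0.803 on ratios, and its 2 main transcripts moved alike in water, a.1 from 18.3%, 17.3% and 19.9% to 34.3%, 31% and 34.1%. The part that values listed at 0 have in these differences was not tested.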

How the results depend on the processing

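edgeR called 78 genes and 96 transcripts with age in ascr#10, 76 genes in water and 58 genes in the difference. With only the 12 first-collection samples these were 49 genes in ascr#10, 41 in water and 15 in the difference. Against 58 h of the second collection, edgeR called 498 genes and 678 transcripts. limma voom called 227 genes and 373 transcripts in ascr#10, 156 genes in water and 10 in the difference. limma on TPM ratios called 199, 348, 178 and 5, 110 genes and 215 transcripts at a pseudocount of 0.1, and 199 genes and 362 transcripts after summing coding isoforms. Without 1 replicate at a time the counts were 57 to 79 genes and 66 to 91 transcripts in ascr#10, 55 to 78 genes in water and 37 to 58 in the difference, the 37 without the third ascr#10 sample at 58 h or without the first water sample at 50 h. The cause of these moves was not tested. At gene level 3397 to 3528 genes were called under all alternatives run, against 3501.

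Deviations of same-numbered samples from their group means were close to uncorrelated (r = 0.0345, 0.000193 and -0.0102). Only replicate 1 matched best with its own number. Such values cannot exclude that the numbers pair the samples, and the main fit used no pairing. With the replicate block edgeR called 64 genes, 78 transcripts, 57 genes in water and 14 in the difference, and 3518 genes at gene level.

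Of the 26 named transcripts that edgeR called, 13 kept their call without each of the 6 samples and 13 lost it without at least 1, and none turned direction. Against the second collection 16 kept the edgeR call, 7 lost it (ccch-1, nra-4, K02C4.3, unc-70, unc-33, rps-12 and ifa-1) and 3 turned, with shifts of 2.99 points for ZK355.2 a.1, 3.10 points for C41D11.3 b.1 and 11.04 points for dnj-20 b.1. Of transcripts that edgeR did not call, pod-1 b.1 (-1.72 points) and lev-11 m.2 (-6.30 points) also went the other way there. By share of estimated counts, 0 of the 66 named shifts turned, 7 were over 1.5 times smaller and 2 over 1.5 times larger. Besides those given above, C42C1.9 b.1 moved by 37.4 points instead of 56.4, frm-1 b.1 by 19.8 instead of 12.5 and pqn-70 c by -4.84 instead of -1.99.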
